A study of Mus musculus with 49 samples.

Results

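Livers of mice described by the study as overexpressing human MET were compared after and before the appearance of tumors, by taking the log2 of the deposited intensities and setting 7 distant livers of 14 weeks against 7 TRE-MET livers of 6 weeks. These 14 samples were chosen from 49 by their titles, which give a strain or genotype, a tissue type and an age. The other samples were 7 adjacent livers and 14 tumors of the 14-week mice, 7 WT livers of 14 weeks and 7 LAP-tTA livers of 7 weeks, and RNA of each was hybridised to a custom Affymetrix mouse array. All mice were of the FVB background.

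The distant livers, labelled LAP-tTA-Tre-c-Met, came from 14-week mice that each bore tumors, and their labels give the tissue as normal and as distant ("dis"). The TRE-MET livers are labelled Tre-c-Met alone, with no mention of LAP-tTA, whereas the study's methods give the TRE-MET strain both transgenes at both ages. According to those methods, 1 copy of LAP-tTA, in which a liver promoter drives a tetracycline-controlled transactivator, and 1 copy of Tre-Met, a human MET gene under the operator that this transactivator binds, together express MET throughout the liver. The LAP-tTA control strain carried the transactivator alone, in 2 copies, and the WT livers of 14 weeks are labelled as wild type, whereas the methods describe the control mice of that age as the LAP-tTA strain. This conflict bears on each comparison with WT livers given here, and the name WT follows the labels. The title of TRE-MET liver 1 gives 6 weeks and its age field 14 weeks; the title was followed. Age, tumor bearing and the labelled genotype all differ between the distant and TRE-MET livers, so their parts in any difference cannot be told apart.

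MET is the receptor tyrosine kinase for hepatocyte growth factor, which in liver supports hepatocyte survival and growth during development and after injury. Sustained MET activity in hepatocytes can lead to hepatocellular tumors, and tumors driven by MET often carry activated beta-catenin, the transcriptional co-activator that also sets the pericentral program of the liver lobule. The array's Met probe sets were designed for the mouse gene, so they do not measure the human transgene as such. Met at the brighter probe set averaged 2.25 ± 0.13 on the log2 intensity scale in distant livers (2.01 to 2.46) and 2.22 ± 0.37 in TRE-MET livers (1.62 to 2.54; SD, n = 7 each), a difference of 0.02 (two-sided exact permutation p = 0.877, Benjamini-Hochberg p = 0.877 over 2 tests). That value averages TRE-MET livers on both sides of the distant ones: the difference was 0.38 without TRE-MET livers 1, 2, 3 and 5 (limma, adjusted p = 0.0502) and -0.24 without TRE-MET livers 4, 6 and 7 (limma, adjusted p = 0.0589). At the dimmer probe set Met averaged 0.63 ± 0.12 in distant livers (0.45 to 0.76) and 0.08 ± 0.16 in TRE-MET livers (-0.11 to 0.37), a difference of 0.55 with no overlap between the groups (exact permutation p = 0.000583, the smallest that 7 against 7 allows, and Benjamini-Hochberg p = 0.00117 over 2 tests). The 2 Met probe sets thus gave different answers.

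Some livers stood apart from the rest of their group. Xist, the RNA that coats the inactive X chromosome of female cells, was high in distant livers 3, 4, 5 and 6 (1.22 to 1.67) and low in distant livers 1, 2 and 7 (-5.30 to -4.86), in all 7 TRE-MET livers (-5.28 to -4.74) and in all 7 LAP-tTA livers. Kdm5d, a Y-linked histone demethylase, ran the other way in these livers, and 2 of the 7 WT livers held Xist. The labels give no sex. Results are therefore also given for the 3 distant livers without Xist against the 7 TRE-MET livers, and named here as the comparison without Xist. TRE-MET livers 1, 2, 3 and 5 stood apart from TRE-MET livers 4, 6 and 7: S100a8, a neutrophil calgranulin, lay at 0.74 to 1.89 in livers 1, 2, 3 and 5 and at -3.38 to -2.45 in livers 4, 6 and 7. Values without TRE-MET livers 1, 2, 3 and 5 are given where they end a call. Mean log2 intensity over 16 hepatocyte markers was 5.95 to 6.03 in distant livers and 5.90 to 5.98 in TRE-MET livers, and Alb, the plasma protein albumin, lay at 6.96 to 7.14 in distant livers and 6.85 to 7.00 in TRE-MET livers. Arrays give no read depth, so 7 samples a group set the precision, and p-values measure the spread between these samples. The labels number the samples of a group without saying that each is a separate mouse, while the study's methods describe 7 mice of each strain at each age.

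Of 43681 probe sets, 6231 (14.3%) differed between distant and TRE-MET livers at an adjusted p under 0.05 (limma, Benjamini-Hochberg), 2609 higher and 3622 lower in distant livers. With the sample medians set equal, 5198 were called and the split turned to 3756 higher and 1442 lower, 72.3% higher in place of 41.9%. At the brightest probe set of each of 21517 genes, 17.3% of genes were called, 7.85% higher and 9.44% lower, and the median gene differed by -0.06. In the comparison without Xist 987 probe sets were called, and of the genes 3.18%, 1.98% higher and 1.2% lower. Without TRE-MET livers 1, 2, 3 and 5 the shares of genes were 5.9% higher and 5.25% lower, without TRE-MET livers 4, 6 and 7 7.4% and 8.98%, and with sample medians set equal 11.1% and 4.08%. The counts of list members below are to be read against these shares. Log2 differences are distant minus TRE-MET throughout, and a set of 3 log2 intensities for a gene gives the lowest, the median and the highest of the 7 livers of a group.

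Genes of the MET pathway and immediate early genes moved in few cases, 5 that rose and 2 that fell of 35 measured (median 0.03), and 4 that rose and 5 that fell without TRE-MET livers 4, 6 and 7. Without Xist 2 rose and 0 fell. Hgfac, the serum protease that activates hepatocyte growth factor, had log2 intensities of 3.44, 3.88 and 4.17 in distant livers and 2.66, 2.88 and 3.26 in TRE-MET livers. It was 1.94-fold higher with no overlap (difference 0.95, SE 0.106, adjusted p = 1.79e-05). Gab1, the docking protein that binds activated MET, stood at -0.23, 0.04 and 0.22 in distant livers and -0.69, -0.51 and -0.07 in TRE-MET livers, 1.39-fold higher with some overlap (difference 0.48, SE 0.0953, adjusted p = 0.00291). Its difference missed the threshold without Xist (0.32, adjusted p = 0.207), and without TRE-MET livers 1, 2, 3 and 5 (0.40, adjusted p = 0.0731). Hgf, the ligand itself, was lower and is given with the matrix genes.

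Among the 12 largest increases with groups that did not overlap was that of Tff3, a secreted trefoil peptide of the gut mucosa. Tff3 had log2 intensities of 1.32, 2.66 and 3.77 in distant livers, against -2.02, -1.47 and -1.29 in TRE-MET livers, a difference of 4.25 or 19-fold (SE 0.278, adjusted p = 3.61e-08). No distant liver came near the TRE-MET range, and the difference was 3.75 without Xist (adjusted p = 1.11e-06) and 4.68 against WT livers of the same age (adjusted p = 2.48e-08). Cyp17a1, the steroid 17-alpha-hydroxylase, stood at 1.56, 3.20 and 4.16 in distant livers and at -1.52, -1.29 and -0.62 in TRE-MET livers, 16.1-fold higher (difference 4.01, SE 0.359, adjusted p = 1.76e-06). No distant liver overlapped the TRE-MET range, and the distant livers without Xist held its lowest distant values, 1.56 to 1.88. Abcd2, a peroxisomal transporter of very long chain fatty acids, was at 0.36, 1.86 and 2.10 in distant livers against -3.38, -2.51 and -1.85 in TRE-MET livers, 15.3-fold higher (SE 0.299, adjusted p = 1.99e-07). Distant livers without Xist held its lowest distant values, 0.36 to 0.69, still above all TRE-MET livers. In WT livers Abcd2 was at 1.89 and 2.02 in those with Xist and at -2.91 to -0.52 in the others. Ifi27l2b, a member of an interferon-inducible family, rose 28-fold (difference 4.81, SE 0.429, adjusted p = 1.73e-06), and Xdh, the xanthine dehydrogenase of purine breakdown, 6.31-fold (difference 2.66, SE 0.135, adjusted p = 2.36e-09). Acot3, a peroxisomal acyl-CoA thioesterase, rose 13.4-fold (difference 3.75, adjusted p = 0.000565), with a smaller difference of 1.86 without Xist (adjusted p = 0.00846). Akr1c19, an aldo-keto reductase, rose 6.85-fold (difference 2.78, adjusted p = 5.68e-05), with 1.69 without TRE-MET livers 1, 2, 3 and 5 (adjusted p = 0.000112). Both Xdh and Akr1c19 were higher still in LAP-tTA livers, which carry no Tre-Met. Xdh lay at 1.89 to 2.23 in LAP-tTA and 0.66 to 1.20 in distant livers, and Akr1c19 at 2.35 to 2.83 and 1.28 to 2.04. Nipal1, a magnesium transporter, rose 15.0-fold, but its difference of 2.05 from WT livers did not pass (adjusted p = 0.0926).

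Among the decreases, Gna14, a G protein alpha subunit of the Gq family, had log2 intensities of -4.27, -3.96 and -3.62 in distant livers and -0.97, -0.78 and -0.57 in TRE-MET livers. It was 9.21-fold lower in distant livers (difference -3.20, SE 0.091, adjusted p = 2.86e-13), and every distant liver lay far under every TRE-MET liver. The difference was -3.18 without Xist (adjusted p = 4.78e-09) and -2.65 against WT (adjusted p = 4.40e-06). Serpine2, a secreted inhibitor of serine proteases, stood at -3.92, -3.70 and -3.24 in distant livers and -1.60, -1.06 and -0.71 in TRE-MET livers, 5.73-fold lower (difference -2.52, SE 0.137, adjusted p = 4.37e-09). Scara5, a ferritin receptor, was 19.8-fold lower (difference -4.30, SE 0.772, adjusted p = 0.00132), but within the distant group it ran between -4.50 and -0.38, and without Xist its difference of -2.23 did not pass (adjusted p = 0.123), nor did that of -2.72 without TRE-MET livers 1, 2, 3 and 5 (adjusted p = 0.0792). Egfr, the epidermal growth factor receptor, was 4.35-fold lower (difference -2.12, SE 0.385, adjusted p = 0.00143), with the 3 distant livers without Xist at 2.80 to 3.30 and the TRE-MET livers at 3.65 to 4.25. Egfr differed by -0.85 without Xist (adjusted p = 0.00542). Ugt2b38, a glucuronosyltransferase, was 19.7-fold lower (adjusted p = 0.000576, and 0.0801 without Xist), and Mup2, a major urinary protein, 6.71-fold lower (difference -2.75, adjusted p = 0.0122, and -0.46, adjusted p = 0.0508, without Xist). C6, a component of the complement membrane attack complex, was 4.69-fold lower (difference -2.23), but its difference without Xist was -0.66 (adjusted p = 0.0263). Susd4, a complement regulator, was 4.32-fold lower (difference -2.11), and differed by -1.09 without Xist (adjusted p = 0.00214). Atp4a, a proton pump subunit, was 4.38-fold lower (difference -2.13), with -2.06 without Xist (adjusted p = 0.0199) and -1.19 without TRE-MET livers 1, 2, 3 and 5 (adjusted p = 0.00461). Of all genes, 1031 (4.79%) were called with groups that did not overlap.

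**Figure D1:**
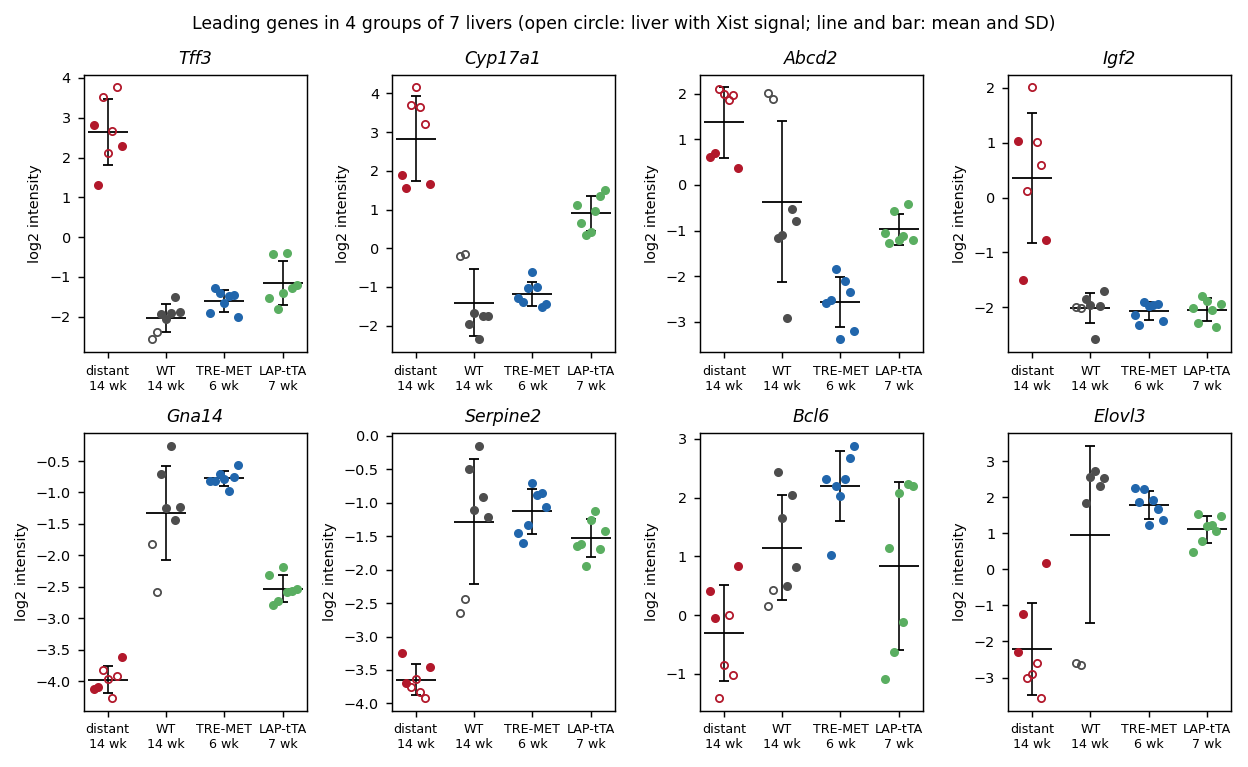
Log2 intensity of 8 leading genes, 1 panel a gene, with 1 point for each of the 7 livers of the distant, WT, TRE-MET and LAP-tTA groups from left to right, open circles for livers with Xist signal, and the mean with its SD as a line and bar. Tff3, Cyp17a1, Abcd2 and Igf2 lay higher and Gna14, Serpine2, Bcl6 and Elovl3 lower in distant than in TRE-MET livers, with no overlap between these 2 groups in any panel.

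Most measured genes of the male-biased and female-biased lists, which differ between male and female mouse liver, changed in distant livers. Growth hormone, released in pulses in males and more steadily in females, sets this program through STAT5 and the repressors Bcl6 and Cux2. Of 18 male-biased genes measured, 15 fell and 0 rose in distant livers, with a median difference of -1.42, and of 23 female-biased genes 19 rose and 0 fell, with a median of 2.91. Without Xist, 6 of the 18 male-biased genes fell (median -0.51) and 7 of the 23 female-biased genes rose (median 0.38). Mean log2 intensity over the male-biased genes was 0.07 to 0.33 in the 4 distant livers with Xist, 2.18 to 2.69 in the 3 without, and 2.95 to 3.75 in TRE-MET livers. Over the female-biased genes it was 1.94 to 2.15 in distant livers with Xist, -1.72 to -1.40 in those without, and -2.49 to -1.98 in TRE-MET livers. For both lists the 3 distant livers without Xist lay outside the TRE-MET range, and closer to it than the 4 with Xist. Over the female-biased genes those 3 livers lay inside the range of WT livers without Xist, -2.34 to -1.36. They also overlapped the LAP-tTA range of -1.92 to -1.54. Over the male-biased genes they lay below both the WT livers without Xist (lowest 3.21) and the LAP-tTA livers (lowest 2.89). Against WT livers, without Xist in both groups, 4 female-biased genes rose and 2 fell (median -0.03). Of the male-biased genes 8 fell and 0 rose there (median -0.47). Without TRE-MET livers 1, 2, 3 and 5, 10 male-biased genes fell (median -1.68) and 6 female-biased genes rose (median 2.82), and without TRE-MET livers 4, 6 and 7, 8 male-biased genes fell and 1 rose, and 12 female-biased genes rose.

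Single members split into those that followed Xist and those that differed also without it. Cyp4a12a, a male-specific fatty acid hydroxylase, had log2 intensities of -4.22, -3.29 and 4.96 in distant livers and 4.63, 4.77 and 5.28 in TRE-MET livers, a difference of -5.06 (SE 1.45, adjusted p = 0.0264). Its distant livers fell into high and low sets along the line of Xist, the difference without Xist was -0.11 (adjusted p = 0.799), and the call was lost when any one of distant livers 3, 4, 5 and 6 was left out (adjusted p = 0.0576 to 0.0602) and without TRE-MET livers 1, 2, 3 and 5 (adjusted p = 0.133). Hao2, a female-biased peroxisomal hydroxyacid oxidase, had a difference of 4.73 (adjusted p = 0.0222) that was 0.26 without Xist (adjusted p = 0.503), and its call was lost without any one of distant livers 4, 5 and 6 (adjusted p = 0.0511 to 0.0513) and without TRE-MET livers 1, 2, 3 and 5 (adjusted p = 0.126). Elovl3, a male-biased elongase of very long chain fatty acids, was at -3.57, -2.59 and 0.17 in distant livers and 1.23, 1.86 and 2.25 in TRE-MET livers, 15.9-fold lower (difference -4.0, SE 0.416, adjusted p = 8.91e-06), and the difference of -2.91 without Xist also passed (adjusted p = 0.000628). Cyp7b1, the oxysterol 7-alpha-hydroxylase of the alternative bile acid pathway, was 20.0-fold lower (difference -4.32, SE 0.596, adjusted p = 0.000142), and its difference without Xist was -2.30 (adjusted p = 4.72e-07). Cyp2b9, a female-biased cytochrome P450, had the largest increase among genes called with separate groups, 58.1-fold (difference 5.86, SE 0.714, adjusted p = 4.51e-05), with 3.49 without Xist (adjusted p = 3.36e-06). Probes for the Cyp2b, Cyp3a, Mup and Sult2a families may also bind transcripts of close relatives, so values of single members are uncertain.

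**Figure D2:**
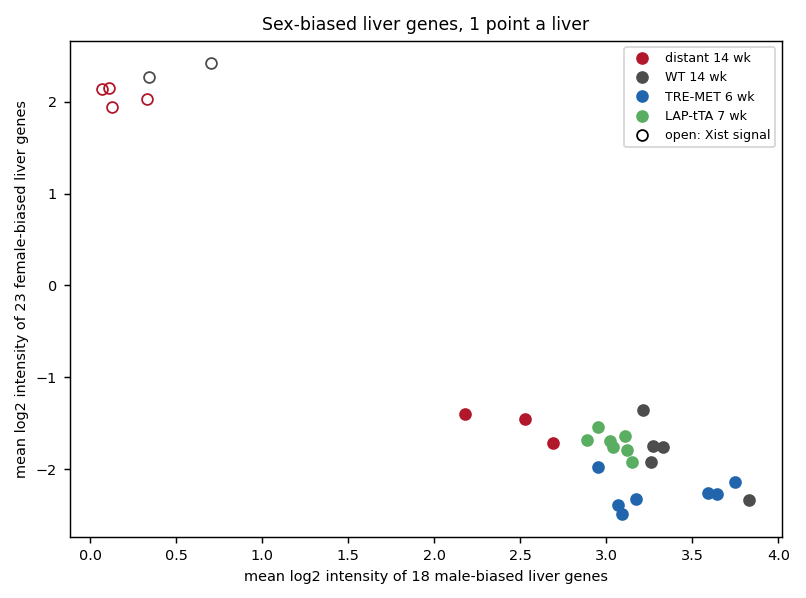
Mean log2 intensity over 23 female-biased genes (vertical axis) against that over 18 male-biased genes (horizontal axis), 1 point a liver, for distant, WT, TRE-MET and LAP-tTA livers, with open circles for livers with Xist signal. The 4 distant livers with Xist lie at 0.07 to 0.33 on the horizontal axis and 1.94 to 2.15 on the vertical, and the 3 distant livers without Xist lie at 2.18 to 2.69 on the horizontal axis, below all TRE-MET livers.

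Of the repressors of this program, Bcl6 had log2 intensities of -1.41, -0.05 and 0.83 in distant livers and 1.02, 2.31 and 2.88 in TRE-MET livers, 5.64-fold lower (difference -2.50, SE 0.318, adjusted p = 6.94e-05), also without Xist (-1.80, adjusted p = 0.00509). Bcl6 varied widely in the other groups, from -1.08 to 2.24 in LAP-tTA livers and 0.16 to 2.44 in WT livers. Both ranges overlapped those of the distant and the TRE-MET livers. Cux2, the female-specific repressor, differed by 1.27 (adjusted p = 0.00733), and by 0.38 without Xist (adjusted p = 0.261) and 1.41 without TRE-MET livers 1, 2, 3 and 5 (adjusted p = 0.0524). Feedback inhibitors of growth hormone receptor signaling, which are themselves STAT5 targets, were higher in distant livers. Socs2 stood at 0.53, 1.83 and 2.40 in distant livers and -2.50, -0.52 and 0.29 in TRE-MET livers, 5.88-fold higher (difference 2.56, SE 0.356, adjusted p = 0.000156). Cish stood at 0.16, 1.10 and 2.17 in distant livers and -0.71, -0.51 and 0.15 in TRE-MET livers, 3.04-fold higher (difference 1.6, SE 0.259, adjusted p = 0.000573), and the 3 distant livers without Xist held its highest values, 1.70 to 2.17. Over the 16 genes of the growth hormone and insulin-like growth factor axis 6 rose and 2 fell (median 0.02). Without Xist 2 of them rose and 1 fell (median 0.08). Ghr, the growth hormone receptor, differed by -0.07 (SE 0.143, adjusted p = 0.777) and Igf1, the main circulating growth factor made by liver under growth hormone, by -0.05 (SE 0.0742, adjusted p = 0.677).

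Genes of fatty acid synthesis, uptake and storage rose together. Of 31 measured, 20 rose and 2 fell, with a median difference of 0.58, and without Xist 12 rose and 1 fell (median 0.55). Cd36, a fatty acid transporter of the plasma membrane, had log2 intensities of 0.21, 0.85 and 1.53 in distant livers and -1.29, -0.82 and -0.57 in TRE-MET livers, 3.42-fold higher (difference 1.78, SE 0.164, adjusted p = 2.39e-06). Lpl, the lipase that frees fatty acids from circulating triglyceride and is low in adult hepatocytes, stood at 2.29, 2.91 and 3.77 in distant livers and 0.54, 0.96 and 2.14 in TRE-MET livers, 3.90-fold higher (difference 1.96, SE 0.222, adjusted p = 2.18e-05). In both genes every distant liver was above every TRE-MET liver, and both passed without Xist (adjusted p = 0.000163 for Cd36 and 0.00357 for Lpl). Acaca, the acetyl-CoA carboxylase that commits carbon to fatty acids, was 2.09-fold higher (difference 1.07, SE 0.131, adjusted p = 4.98e-05), at 1.5, 1.97 and 2.30 in distant livers and 0.42, 0.88 and 1.18 in TRE-MET livers. Fasn, the fatty acid synthase, was 2.86-fold higher (difference 1.51, SE 0.196, adjusted p = 7.99e-05), at 3.63, 4.23 and 4.54 in distant livers and 1.94, 2.97 and 3.04 in TRE-MET livers. Both also held without Xist (adjusted p = 0.00993 for Acaca and 0.0162 for Fasn).

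Srebf1, the transcription factor that drives these enzymes under insulin, was 1.90-fold higher (difference 0.92, SE 0.13, adjusted p = 0.000171). Scd1, the stearoyl-CoA desaturase, was at 6.19, 6.26 and 6.34 in distant livers, against 4.23, 4.6 and 5.95 in TRE-MET livers (difference 1.29, SE 0.225, adjusted p = 0.00107), and missed the threshold without Xist at the same size (1.28, adjusted p = 0.0574). The largest rise of the list was that of Pnpla3, a lipase of lipid droplets that is induced by feeding, at -0.75, 1.55 and 2.58 in distant livers and -3.12, -2.63 and -1.77 in TRE-MET livers, 13.1-fold higher (difference 3.72, SE 0.419, adjusted p = 2.11e-05). The 2 members that fell were Elovl3, counted above among the male-biased genes, and Plin5, a lipid droplet protein that links droplets to mitochondria (difference -0.53, SE 0.0943, adjusted p = 0.00132, and -0.32, adjusted p = 0.0952, without Xist). Pparg, a nuclear receptor of fat storage, differed by -0.02 (SE 0.207, adjusted p = 0.968), and Cidec, a droplet protein of fatty liver, by -0.03 (SE 0.0845, adjusted p = 0.838). Against WT livers of 14 weeks, where 3.33% of all genes were called higher and 3.51% lower, 15 of the 31 rose and 3 fell (median 0.44), and 9 rose and 2 fell between the livers of both groups without Xist (1.45% and 1.35% of all genes). In WT livers against TRE-MET livers, where 4.22% of genes were called higher and 3.59% lower, 7 rose and 2 fell (median 0.29), and 2 rose and 1 fell without the 2 WT livers with Xist (2.5% and 1.72% of all genes). These 3 comparisons share samples.

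**Figure D3:**
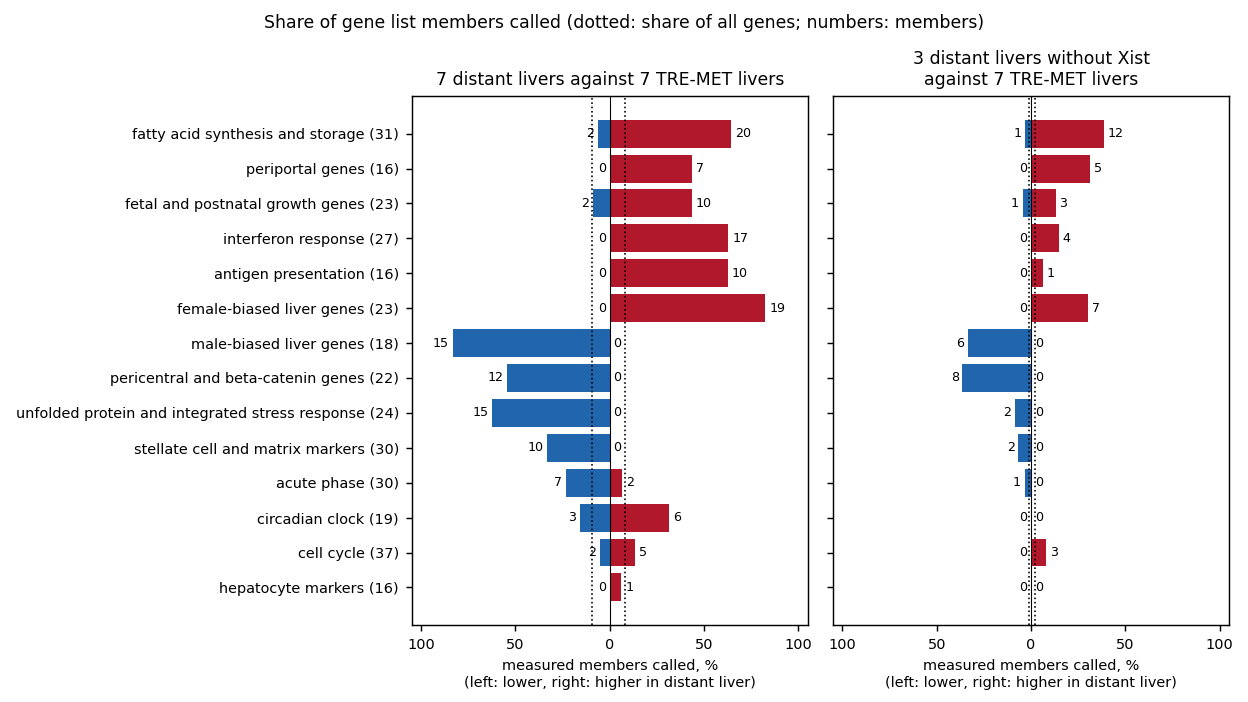
Share of the measured members of 14 gene lists that were called, in percent, lower in distant livers to the left and higher to the right, for all 7 distant livers (left panel) and the 3 without Xist (right panel) against 7 TRE-MET livers. Numbers beside the bars count members, the number after each name is the members measured, and dotted lines give the share of all genes, 7.85% higher and 9.44% lower on the left and 1.98% and 1.2% on the right.

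Other metabolic lists gave fewer calls, in both directions. Of 26 genes of bile acid synthesis and transport 5 rose and 6 fell (median 0.02), but 2 rose and 10 fell without TRE-MET livers 1, 2, 3 and 5 (median -0.14) and 8 rose and 3 fell without TRE-MET livers 4, 6 and 7 (median 0.07). Klb, the co-receptor through which hepatocytes sense the intestinal hormone FGF15, had log2 intensities of 1.66, 1.92 and 2.12 in distant livers and 0.67, 0.93 and 1.13 in TRE-MET livers, 1.92-fold higher with separate groups (difference 0.94, SE 0.0889, adjusted p = 3.11e-06, and 0.85, adjusted p = 0.00114, without Xist). Akr1d1, the steroid 5-beta-reductase of bile acid synthesis, was 2.5-fold higher (difference 1.32, SE 0.152, adjusted p = 2.52e-05, and 0.95, adjusted p = 0.00408, without Xist). Of 27 genes of glycolysis, gluconeogenesis and glycogen 7 rose and 5 fell (median 0.14), with Ppp1r3c, a targeting subunit that promotes glycogen storage, at 0.76, 1.05 and 1.98 in distant livers and 2.24, 2.41 and 2.62 in TRE-MET livers (difference -1.13, SE 0.152, adjusted p = 0.000119, and -0.69, adjusted p = 0.00632, without Xist). No distant liver reached the TRE-MET range of Ppp1r3c. Of 30 genes of the NRF2 and glutathione list 11 rose and 3 fell (median 0.21), and without TRE-MET livers 1, 2, 3 and 5, 4 rose and 3 fell. The split of several further lists moved with the TRE-MET livers used. Of 37 xenobiotic metabolism genes 6 rose and 6 fell (median -0.12), with 3 and 9 without TRE-MET livers 1, 2, 3 and 5 and 11 and 5 without TRE-MET livers 4, 6 and 7. Of 20 genes of cholesterol synthesis 2 rose and 3 fell (median -0.07), with 4 and 0 without TRE-MET livers 1, 2, 3 and 5 (median 0.26) and 2 and 9 without TRE-MET livers 4, 6 and 7 (median -0.54). Of 28 genes of fatty acid oxidation and ketogenesis 5 rose and 0 fell (median 0.14), with 4 and 4 without TRE-MET livers 1, 2, 3 and 5 (median -0.09) and 12 and 0 without TRE-MET livers 4, 6 and 7. Of 48 of oxidative phosphorylation 7 rose and 1 fell (median 0.03), with 3 and 1 (median -0.06) and 14 and 0 (median 0.13) in the same order of alternatives. Without Xist, 2 bile acid genes rose and 1 fell, as did 2 and 1 of xenobiotic metabolism. Genes of glycolysis, gluconeogenesis and glycogen gave 5 and 1 in that comparison, and the NRF2 and glutathione list 4 and 0 (median 0.09). Fatty acid oxidation and oxidative phosphorylation each gave 3 and 0, and cholesterol synthesis 0 and 0.

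Genes of the pericentral zone fell. In the liver lobule, Wnt signals from the endothelium of the central vein activate beta-catenin and TCF factors in the nearest hepatocytes, which then make glutamine synthetase and drug-metabolizing enzymes, while periportal hepatocytes carry out gluconeogenesis and urea synthesis. Of 22 pericentral and beta-catenin genes measured, 12 fell and 0 rose (median -0.41), and without Xist 8 fell and 0 rose (median -0.52). Against WT, 15 fell and 0 rose (median -0.56), and WT livers against TRE-MET livers gave 3 that rose and 0 that fell (1 and 0 without the 2 WT livers with Xist). Glul, glutamine synthetase, had log2 intensities of 2.80, 2.94 and 3.52 in distant livers, against 4.06, 4.34 and 4.44 in TRE-MET livers and 4.12 to 4.48 in WT livers. Every distant liver lay below every TRE-MET, WT and LAP-tTA liver, 2.34-fold lower than TRE-MET on average (difference -1.23, SE 0.107, adjusted p = 1.30e-06), and the difference without Xist was -1.41 (adjusted p = 1.55e-06).

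Axin2, a feedback inhibitor that beta-catenin induces in most tissues, stood at -2.47, -1.99 and -1.89 in distant livers and -1.40, -1.26 and -1.09 in TRE-MET livers, 1.79-fold lower (difference -0.84, SE 0.0902, adjusted p = 1.26e-05). Tbx3, a transcription factor downstream of beta-catenin in liver, stood at -2.90, -2.47 and -2.04 in distant livers and -1.67, -1.38 and -0.80 in TRE-MET livers, 2.26-fold lower (difference -1.18, SE 0.146, adjusted p = 5.35e-05). Neither gene's groups overlapped, and both passed without Xist (adjusted p = 0.000687 for Axin2 and 0.00415 for Tbx3). Slc1a2, a glutamate transporter of pericentral hepatocytes, was uneven among the distant livers: livers 1, 2, 3, 6 and 7 had -2.71 to -1.83, while distant liver 4 had 1.46 and distant liver 5 had 1.08, within or above the TRE-MET range of 0.66 to 1.29. Its difference was -2.20 (SE 0.557, adjusted p = 0.0142), and without Xist, which leaves both high livers out, it was -3.43 (adjusted p = 7.07e-08). Without TRE-MET livers 1, 2, 3 and 5 it was -2.51 (adjusted p = 0.0696). Cyp1a2, a pericentral cytochrome P450 of xenobiotic metabolism, was 2.01-fold lower (difference -1.01, SE 0.153, adjusted p = 0.000345), and Oat, ornithine aminotransferase, 2.38-fold lower (difference -1.25, SE 0.25, adjusted p = 0.00303). Lgr5, a receptor of the Wnt pathway, differed by -0.55 (SE 0.136, adjusted p = 0.0126) and by -0.51 without Xist (adjusted p = 0.162), and Rnf43, a ubiquitin ligase that removes Wnt receptors, by -0.13 (SE 0.2, adjusted p = 0.704).

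The TCF/LEF core CTTTGAT, searched on both strands in the 250 bases before and 50 after each gene's start (RefSeq, GRCm38.p6), was present in 3 of the 13 pericentral genes with a window (23.1%) and in 1160 of all 27025 genes with one (4.29%). Those 3 were called lower in distant livers and are shown 5′ to 3′ on the gene's strand with the match in capitals, Sp5 from chr2:70474789-70474855 (plus strand), Slc1a2 from chr2:102706201-102706267 (plus) and Lect2 from chr13:56548539-56548600 (minus), all upstream of the start. A match is a description and not a binding site.
Sp5: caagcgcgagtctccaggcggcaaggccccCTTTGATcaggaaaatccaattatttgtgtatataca
Slc1a2: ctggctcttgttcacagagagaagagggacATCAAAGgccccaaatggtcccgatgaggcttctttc
Lect2: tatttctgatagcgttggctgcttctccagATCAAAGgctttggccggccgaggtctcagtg
Sp5, a transcription factor induced by Wnt, differed by -0.37 (SE 0.104, adjusted p = 0.0246), and lost its call without any one of distant livers 3, 4 and 6 (adjusted p = 0.0507 to 0.0559), with sample medians set equal (adjusted p = 0.0803) and without Xist (adjusted p = 0.463). Lect2, a secreted hepatocyte protein, differed by -0.49 (SE 0.128, adjusted p = 0.0165) and by -0.64 without Xist (adjusted p = 0.0373), and without TRE-MET livers 4, 6 and 7 both genes missed the threshold (adjusted p = 0.150 for Sp5 and 0.153 for Lect2).

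Periportal genes moved the other way in part. Of 16 measured, 7 rose and 0 fell (median 0.24), and without Xist 5 rose and 0 fell (median 0.22). Apoa4, an apolipoprotein made by periportal hepatocytes and intestine, had log2 intensities of 4.47, 5.26 and 5.72 in distant livers and 2.98, 3.29 and 3.76 in TRE-MET livers, 3.78-fold higher with separate groups (difference 1.92, SE 0.176, adjusted p = 2.22e-06). Aldh1b1, a mitochondrial aldehyde dehydrogenase, was 2.85-fold higher (difference 1.51, SE 0.199, adjusted p = 9.45e-05), and by a difference of 0.91 without Xist (adjusted p = 0.00166). Hsd17b13, a lipid droplet protein, was 1.48-fold higher (difference 0.57, SE 0.0751, adjusted p = 9.94e-05). Cyp2f2, a periportal cytochrome P450, differed by -0.48 (SE 0.231, adjusted p = 0.176), and Hal, histidine ammonia-lyase, by 0.15 (SE 0.0778, adjusted p = 0.214). In adjacent liver in place of distant liver, where 7.42% of genes were called higher and 6.45% lower than in TRE-MET livers, 7 periportal genes rose and 0 fell, while 5 pericentral genes fell and 0 rose.

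**Figure D4:**
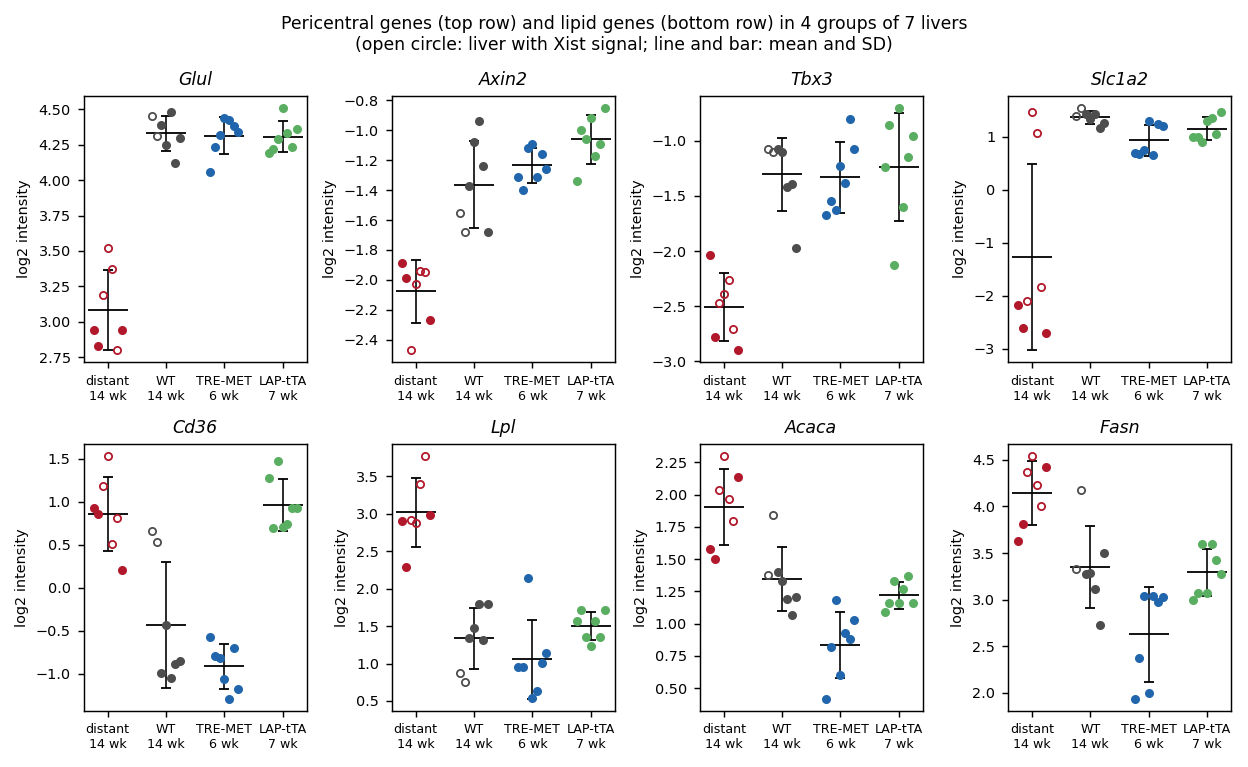
Log2 intensity of the pericentral genes Glul, Axin2, Tbx3 and Slc1a2 (top row) and of the lipid genes Cd36, Lpl, Acaca and Fasn (bottom row), with 1 point for each of the 7 livers of the distant, WT, TRE-MET and LAP-tTA groups from left to right, open circles for livers with Xist signal, and the mean with its SD as a line and bar. Distant livers lay below TRE-MET livers in the top row, apart from the 2 high distant livers for Slc1a2 at 1.08 and 1.46, and above them in the bottom row.

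Chaperones of the endoplasmic reticulum fell. When unfolded proteins build up in this compartment, the transducers ATF6, IRE1 and PERK raise its chaperones and foldases and slow translation. Of 24 genes of the unfolded protein and integrated stress response measured, 15 fell and 0 rose (median -0.51). Without Xist 2 fell and 0 rose at a similar median (-0.48), and without TRE-MET livers 1, 2, 3 and 5, 9 fell and 1 rose (median -0.32). Against WT livers of 14 weeks 0 fell and 1 rose (median 0.07), and in WT livers against TRE-MET livers 16 fell and 0 rose (median -0.53). Mean log2 intensity over the list was 1.84 to 2.51 in distant livers, 1.82 to 2.23 in WT livers and 2.43 to 2.87 in TRE-MET livers, so that distant and WT livers covered much the same range. LAP-tTA livers of 7 weeks lay at 2.16 to 2.32, inside the distant range and below every TRE-MET liver. Dnajc3, a co-chaperone that inhibits PERK, had log2 intensities of 2.18, 2.53 and 2.92 in distant livers and 2.94, 3.13 and 3.47 in TRE-MET livers, 1.58-fold lower (difference -0.66, SE 0.113, adjusted p = 0.000956). Its groups did not overlap, and the difference without Xist was -0.68 (adjusted p = 0.0435). Dnajb11, a co-chaperone of BiP, was 1.86-fold lower (difference -0.90, SE 0.148, adjusted p = 0.000675). Hyou1, a large chaperone of the same compartment, stood at -0.15, 0.01 and 0.90 in distant livers and 0.72, 1.0 and 1.61 in TRE-MET livers (difference -0.95, SE 0.161, adjusted p = 0.00082), with only distant liver 7 inside the TRE-MET range. Sdf2l1 was 2.42-fold lower (difference -1.27, SE 0.223, adjusted p = 0.00109), and Creld2, a secreted stress protein, 2.29-fold lower (difference -1.19, SE 0.258, adjusted p = 0.0054). Hspa5, the chaperone BiP, was 1.42-fold lower (difference -0.50, SE 0.101, adjusted p = 0.00322), and Ddit3, the stress-induced transcription factor CHOP, 1.58-fold lower (difference -0.66, SE 0.155, adjusted p = 0.00919). Of these, Dnajb11, Hyou1, Sdf2l1, Creld2, Hspa5 and Ddit3 missed the threshold without Xist at differences of -0.79, -0.81, -1.05, -0.98, -0.50 and -0.79 (adjusted p = 0.0585 to 0.171), and Sdf2l1 also without TRE-MET livers 1, 2, 3 and 5 (-0.95, adjusted p = 0.0502). Atf4, the transcription factor of the integrated stress response, differed by -0.13 (SE 0.0734, adjusted p = 0.249) and its target Trib3 by 0.02 (SE 0.102, adjusted p = 0.931).

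The ER stress element, searched as CCAAT and CCACG with 9 bases of any kind between them and bound by NF-Y and ATF6, was found on either strand of the same windows in 7 of the 23 list members with one (30.4%) and in 37 of all 27025 genes (0.137%). Shown with the element in capitals, because they fell in distant livers and carry it upstream of the start, are 5 of the 7, Hspa5 from chr2:34771995-34772073 (plus strand), Dnajc3 from chr14:118937797-118937875 (plus), Creld2 from chr15:88819490-88819568 (plus), Pdia6 from chr12:17266461-17266539 (plus) and Hsp90b1 from chr10:86705503-86705686 (minus), which holds 2 copies in opposite orientation.
Hspa5: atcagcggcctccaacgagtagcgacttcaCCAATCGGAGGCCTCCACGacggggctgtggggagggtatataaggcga
Dnajc3: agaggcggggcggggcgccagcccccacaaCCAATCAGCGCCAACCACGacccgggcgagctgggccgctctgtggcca
Creld2: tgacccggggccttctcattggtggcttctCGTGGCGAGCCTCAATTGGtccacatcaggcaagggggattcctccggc
Pdia6: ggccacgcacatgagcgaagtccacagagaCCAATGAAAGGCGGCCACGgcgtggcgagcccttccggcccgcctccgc
Hsp90b1: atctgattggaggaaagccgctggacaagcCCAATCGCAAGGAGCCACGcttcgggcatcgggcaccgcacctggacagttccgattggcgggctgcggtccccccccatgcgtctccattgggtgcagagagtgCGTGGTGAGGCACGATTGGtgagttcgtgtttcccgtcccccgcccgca
Hsp90b1, the chaperone GRP94, was at 4.35, 4.70 and 4.84 in distant livers and 4.88, 5.01 and 5.31 in TRE-MET livers, 1.30-fold lower with separate groups (difference -0.38, SE 0.0808, adjusted p = 0.0046), and missed the threshold without Xist (-0.46, adjusted p = 0.0526) and without TRE-MET livers 1, 2, 3 and 5 (-0.33, adjusted p = 0.0687). Pdia6, a protein disulfide isomerase, differed by -0.48 (SE 0.148, adjusted p = 0.0387), a call lost without any one of distant livers 1 to 6 and TRE-MET livers 1 to 5 (adjusted p up to 0.0794), with sample medians set equal (adjusted p = 0.085), without Xist (adjusted p = 0.329) and without TRE-MET livers 1, 2, 3 and 5 (adjusted p = 0.465).

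Acute phase proteins, made by hepatocytes under interleukin 6, depended on which TRE-MET livers were used. Of 30 measured, 2 rose and 7 fell in distant livers (median -0.43). With sample medians set equal 2 rose and 3 fell, and without Xist 0 rose and 1 fell. Without TRE-MET livers 1, 2, 3 and 5 the direction turned, with 6 that rose and 2 that fell (median 0.37), and without TRE-MET livers 4, 6 and 7, 1 rose and 23 fell (median -1.05). Their mean log2 intensity was 2.49 to 3.85 in distant livers, 4.62 to 4.95 in TRE-MET livers 1, 2, 3 and 5, 2.70 to 2.94 in TRE-MET livers 4, 6 and 7, and 2.63 to 2.99 in WT livers. Saa1, a serum amyloid A, differed by -2.19 (SE 0.695, adjusted p = 0.0428) with values from 1.30 to 5.61 in distant livers and 3.52 to 6.58 in TRE-MET livers, and missed the threshold without any one of distant livers 2, 3, 4, 6 and 7 and TRE-MET livers 1 to 5 (adjusted p = 0.0523 to 0.0855), without Xist (adjusted p = 0.154) and without TRE-MET livers 1, 2, 3 and 5 (-0.85, adjusted p = 0.581). Saa4, the constitutive member, was 2.09-fold lower with separate groups (difference -1.06, SE 0.156, adjusted p = 0.000248), and was called at a smaller difference without TRE-MET livers 1, 2, 3 and 5 (-0.66, adjusted p = 0.0144). Against WT livers 11 acute phase genes rose and 1 fell (median 0.43), Lbp, the lipopolysaccharide-binding protein, among them (difference 1.30, adjusted p = 2.49e-05). Between the livers of both groups without Xist 2 rose and 0 fell (median 0.27).

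Interferon-induced genes rose in distant livers. Type I interferon acts through the ISGF3 complex on promoters of antiviral genes. Of 27 measured, 17 rose and 0 fell (median 0.55), and without Xist 4 rose and 0 fell (median 0.20). Mean log2 intensity over the list was -0.29 to -0.06 in the 4 distant livers with Xist, -0.89 to -0.69 in the 3 without, -1.28 to -0.94 in TRE-MET livers and -0.83 to -0.41 in WT livers. Against WT livers 1 rose and 0 fell (median 0.13), but between the livers of both groups without Xist 0 rose and 2 fell (median -0.20). WT against TRE-MET livers gave 15 that rose and 0 that fell (median 0.40), and 13 and 0 without the 2 WT livers with Xist. Usp18, a protease that dampens the interferon receptor, had log2 intensities of -1.52, -0.40 and -0.05 in distant livers and -2.76, -2.39 and -1.95 in TRE-MET livers, 3.07-fold higher with separate groups (difference 1.62, SE 0.223, adjusted p = 0.000141), and 0.94 without Xist (adjusted p = 0.00268). Ifit1, an antiviral RNA-binding protein, stood at -0.79, 0.02 and 1.08 in distant livers and -1.94, -1.59 and -1.14 in TRE-MET livers, 2.88-fold higher (difference 1.52, SE 0.249, adjusted p = 0.00065). The 3 distant livers without Xist gave its lowest distant values, -0.79 to -0.70, still above all TRE-MET livers (difference 0.81, adjusted p = 0.00984). Rsad2, the antiviral viperin, was 2.14-fold higher (difference 1.10, SE 0.181, adjusted p = 0.000692). Ifit3, of the Ifit1 family, was 2.54-fold higher (difference 1.35, SE 0.251, adjusted p = 0.00183), and at 0.71 without Xist (adjusted p = 0.142). Isg15, a ubiquitin-like protein, differed by 0.16 (SE 0.109, adjusted p = 0.345) and Stat2, a subunit of ISGF3, by -0.16 (SE 0.108, adjusted p = 0.348). Without TRE-MET livers 4, 6 and 7, 7 of the 27 rose and 3 fell.

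The core of the interferon-stimulated response element, searched as GAAA and GAAA with 2 bases of any kind between them on either strand, was found in 14 of the 22 list members with a window (63.6%) and in 1079 of all 27025 genes (3.99%). Shown with each match in capitals, as members that rose in distant livers and hold it upstream of the start, are Ifit1 from chr19:34640755-34640843 (plus strand), Ifit3 from chr19:34583343-34583446 (plus), Rsad2 from chr12:26456533-26456602 (minus) and Oas1g from chr5:120887614-120887661 (minus), where 2 matches overlap.
Ifit1: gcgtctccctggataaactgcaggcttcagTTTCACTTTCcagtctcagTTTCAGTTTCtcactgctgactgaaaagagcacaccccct
Ifit3: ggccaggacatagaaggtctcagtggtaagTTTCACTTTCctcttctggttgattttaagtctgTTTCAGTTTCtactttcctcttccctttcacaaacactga
Rsad2: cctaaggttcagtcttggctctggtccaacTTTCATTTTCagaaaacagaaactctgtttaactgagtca
Oas1g: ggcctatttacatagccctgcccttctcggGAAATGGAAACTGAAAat
Oas1g, an oligoadenylate synthetase that senses double-stranded RNA, was 2.10-fold higher in distant livers (difference 1.07, SE 0.241, adjusted p = 0.00684) and at 0.32 without Xist (adjusted p = 0.278). Of 16 antigen presentation genes 10 rose and 0 fell (median 0.33), and without Xist 1 rose, H2-Q7, a nonclassical class I molecule at 0.64, 1.68 and 2.09 in distant livers and -0.81, -0.01 and 0.31 in TRE-MET livers (difference 1.74, SE 0.207, adjusted p = 3.55e-05, and 1.38, adjusted p = 0.00943, without Xist). Class I genes and class II genes share close relatives, so single values are uncertain. Against WT livers 1 antigen presentation gene rose and 6 fell, and Cd74, the class II invariant chain, was among those that fell (difference -0.83, adjusted p = 0.0452).

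Clock genes split the TRE-MET livers in the same way as the acute phase genes. The hepatic clock cycles between an activator arm, with Arntl and Clock, and an output arm, with Dbp and Tef, so that levels depend on the hour of sampling, which the labels do not give. Of 19 measured, 6 rose and 3 fell (median 0.39), without Xist 0 rose and 0 fell, and without TRE-MET livers 1, 2, 3 and 5, 0 rose and 1 fell (median 0.02). Dbp had log2 intensities of 0.78, 2.38 and 2.76 in distant livers and -3.17, -1.75 and 2.27 in TRE-MET livers, a difference of 2.63 (SE 0.814, adjusted p = 0.0385) that was 0.02 without TRE-MET livers 1, 2, 3 and 5 (adjusted p = 0.981). The call was also lost without any one of distant livers 2 to 6 and TRE-MET livers 1, 2, 3 and 5 (adjusted p = 0.0579 to 0.0781), and without Xist (adjusted p = 0.435). Arntl differed by -1.12 (SE 0.50, adjusted p = 0.144). Nfil3, a repressor of the output arm, was 2.54-fold lower (difference -1.34, SE 0.304, adjusted p = 0.00717), and Cry2, a repressor of the activator arm, 1.52-fold higher (difference 0.60, SE 0.121, adjusted p = 0.00308), and both missed the threshold without TRE-MET livers 1, 2, 3 and 5 (adjusted p = 0.253 for Nfil3 and 0.130 for Cry2) and without Xist (adjusted p = 0.328 for Nfil3 and 0.120 for Cry2). An E-box CACGTG was found in 5 of 17 clock genes with a window (29.4%) and in 8.09% of all genes, and a D-box TTATGTAA in 1 of 17 (5.88%) and 1.11% of all genes, both strands searched. E-box shares in the other lists ran from 0.0%, as for acute phase genes, to 37.5% for the genes named by the study. The part of sampling hour in these differences was not tested.

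**Figure D5:**
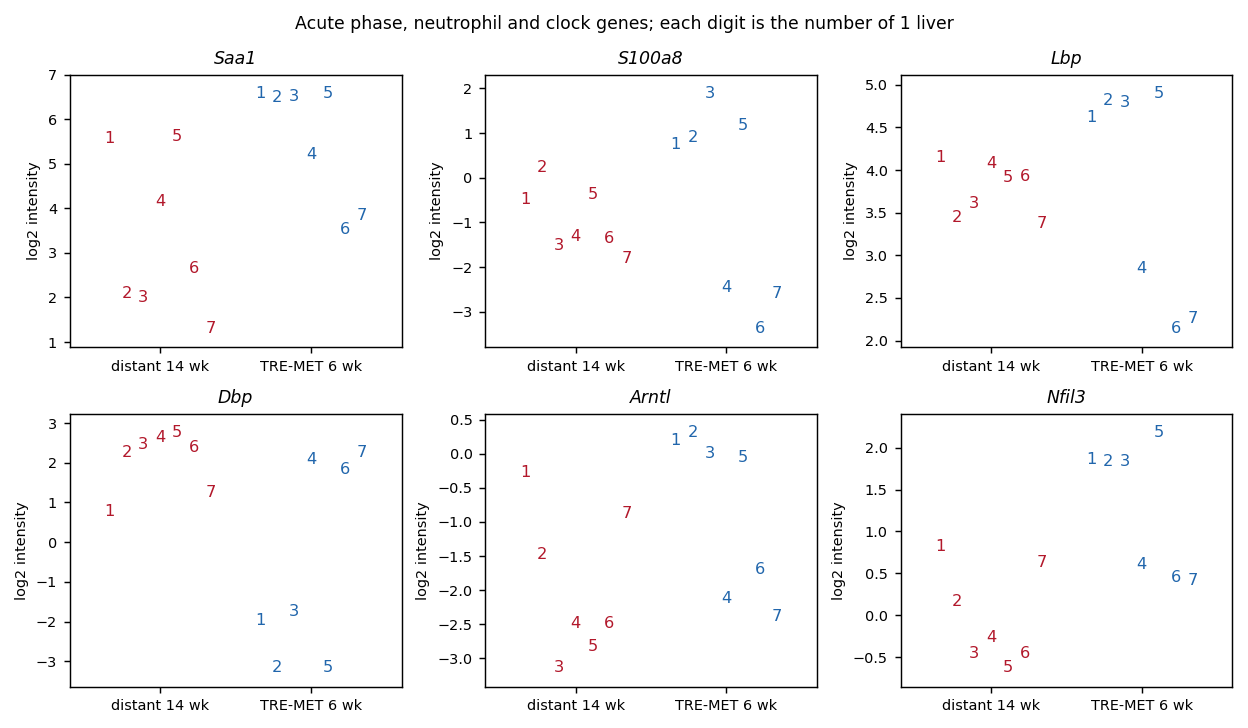
Log2 intensity of the acute phase and neutrophil genes Saa1, S100a8 and Lbp and of the clock genes Dbp, Arntl and Nfil3 in each of the 7 distant livers (left) and the 7 TRE-MET livers (right), marked by liver number. TRE-MET livers 1, 2, 3 and 5 lie apart from TRE-MET livers 4, 6 and 7, as for S100a8, where livers 4, 6 and 7 lie at -3.38 to -2.45, and for Dbp, where they lie at 1.82 to 2.27.

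Genes of fetal liver and early growth rose in part. Of 23 measured, 10 rose and 2 fell (median 0.36), and without Xist 3 rose and 1 fell (median 0.15). Igf2, the fetal insulin-like growth factor, had log2 intensities of -1.50, 0.59 and 2.01 in distant livers and -2.32, -1.98 and -1.90 in TRE-MET livers, 5.36-fold higher with separate groups (difference 2.42, SE 0.375, adjusted p = 0.000407), with 1.65 without Xist (adjusted p = 0.0241). Its distant values were spread over more than 3 log2 units, with distant liver 2 lowest and distant liver 4 highest. Afp, the fetal serum protein alpha-fetoprotein, stood at -2.25, -1.29 and -0.79 in distant livers and -3.63, -3.46 and -3.24 in TRE-MET livers, 4.03-fold higher (difference 2.01, SE 0.191, adjusted p = 3.45e-06), 1.73 without Xist (adjusted p = 0.00052) and 1.87 against WT (adjusted p = 3.75e-05). Golm1, a Golgi membrane protein raised in diseased liver, was 2.70-fold higher (difference 1.43, SE 0.263, adjusted p = 0.00158) and at 0.64 without Xist (adjusted p = 0.0613). Spp1, the secreted phosphoprotein osteopontin, fell, at -0.41, -0.28 and 0.03 in distant livers and 0.57, 1.0 and 1.18 in TRE-MET livers, 2.12-fold lower (difference -1.08, SE 0.107, adjusted p = 5.42e-06), and was also lower than in WT (-1.31, adjusted p = 3.26e-08).

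Cell cycle genes changed in few cases: of 37 measured, 5 rose and 2 fell (median 0.05), against 7.85% and 9.44% of all genes. With sample medians set equal 8 rose and 0 fell, and without Xist 3 rose and 0 fell. Cdt1, a licensing factor of DNA replication, was 1.86-fold higher (difference 0.90, SE 0.137, adjusted p = 0.000369), and Cdc20, an activator of the anaphase-promoting complex, 2.23-fold higher (difference 1.16, SE 0.274, adjusted p = 0.00965). Mki67, the proliferation marker Ki-67, stood at -3.62, -2.22 and -0.73 in distant livers and -3.93, -3.77 and -2.39 in TRE-MET livers (difference 1.16, SE 0.333, adjusted p = 0.0268), with overlap and with 0.39 without Xist (adjusted p = 0.549).

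Markers of other cell types in these bulk livers were read as lists, since fewer cells of a type and less RNA per cell cannot be told apart. Stellate cell and matrix markers fell, 10 of 30 with 0 that rose (median -0.30), without Xist 2 of 30 (median -0.21) and without TRE-MET livers 1, 2, 3 and 5, 6 of 30 (median -0.25), while in adjacent liver 4 rose and 5 fell (median 0.00). Their mean log2 intensity was -0.96 to -0.54 in distant livers, -0.72 to -0.41 in WT livers and -0.70 to -0.46 in TRE-MET livers. Dcn, a small matrix proteoglycan, had log2 intensities of 3.47, 3.58 and 3.86 in distant livers and 3.93, 4.23 and 4.42 in TRE-MET livers, 1.5-fold lower with separate groups (difference -0.58, SE 0.0815, adjusted p = 0.000165, and -0.58, adjusted p = 0.0142, without Xist). Hgf, the ligand of MET, made by stellate cells, stood at -1.92, -1.73 and -1.35 in distant livers and -1.36, -1.10 and -0.85 in TRE-MET livers, 1.46-fold lower (difference -0.55, SE 0.098, adjusted p = 0.00129). Only the highest distant liver for Hgf reached the TRE-MET range, and without Xist the difference was -0.49 (adjusted p = 0.0918). Col1a1, the main fibrillar collagen chain, differed by -0.30 (SE 0.146, adjusted p = 0.185).

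Of 22 Kupffer cell and macrophage markers 5 rose and 2 fell, and Lyz2, a macrophage lysozyme, was 1.70-fold higher (difference 0.77, SE 0.125, adjusted p = 0.000623), while Clec4f, a lectin specific to Kupffer cells, differed by 0.15 (SE 0.12, adjusted p = 0.409). Of 19 lymphocyte markers 3 rose and 1 fell, and of 10 immunoglobulin and plasma cell genes 5 rose and 0 fell, with Ighm, the heavy chain of immunoglobulin M, 1.81-fold higher (difference 0.86, SE 0.126, adjusted p = 0.000258). Of 14 neutrophil markers 0 rose and 1 fell, and their mean log2 intensity was -3.31 to -2.92 in distant livers, -2.67 to -2.22 in TRE-MET livers 1, 2, 3 and 5 and -3.52 to -3.45 in TRE-MET livers 4, 6 and 7. Of 21 sinusoidal endothelium markers 3 rose and 2 fell (9 rose and 1 fell with sample medians set equal), of 17 cholangiocyte and progenitor markers 2 rose and 3 fell, of 6 erythroid markers 2 rose and 0 fell, of 19 pancreas markers 0 rose and 1 fell, and of 12 adipose and muscle markers none passed. Hepatocyte markers gave 1 that rose and 0 that fell of 16. Without Xist, 1 Kupffer cell and macrophage marker rose and 1 fell (median -0.03, against 0.27 with all 7 distant livers). Of the lymphocyte, neutrophil, erythroid, pancreas and hepatocyte markers 0 rose and 0 fell in that comparison. Immunoglobulin and plasma cell genes gave 2 and 0 there, sinusoidal endothelium markers 1 and 1, and cholangiocyte and progenitor markers 0 and 1. The part of these cell types in the list changes above was not tested.

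In 18 genes the LAP-tTA livers lay at one end, the WT and TRE-MET livers at the other, and the distant and adjacent livers between them with no overlap, 12 with LAP-tTA highest and 6 with LAP-tTA lowest. They were chosen for this pattern, so their values are given as a description. Xdh and Akr1c19, named above with the largest increases, were among the 12. Gstm5, a glutathione transferase, ran from 1.86 to 2.37 on the log2 intensity scale in distant livers, 0.47 to 0.79 in WT livers, 0.27 to 0.87 in TRE-MET livers and 3.04 to 3.95 in LAP-tTA livers. Corin, a serine protease that processes natriuretic peptides, ran from -3.0 to -1.93 in distant livers, -4.37 to -4.08 in WT livers, -4.39 to -4.02 in TRE-MET livers and -1.66 to -1.06 in LAP-tTA livers. Akr1e1, an aldo-keto reductase, was of the other kind, with -0.57 to 0.44 in distant livers, 0.49 to 1.01 in WT livers, 0.68 to 0.90 in TRE-MET livers and -3.53 to -1.81 in LAP-tTA livers. For these genes the TRE-MET livers, labelled without LAP-tTA, lay with the WT livers, and which transgenes the 6-week mice carried cannot be settled from the sources used here. The distant minus TRE-MET difference was also set against the WT minus LAP-tTA difference, and the difference of the 2 was called for 10.1% of genes. That second pair of groups had similar ages and no Tre-Met, but by the labels it also differed in LAP-tTA. Age and LAP-tTA therefore cannot be told apart in it.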

How the data were processed

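Livers were profiled on a custom Affymetrix array. The deposited values are linear intensities (their mean is 1.0 in every sample, their range 0.0169 to 143.6). The study's methods state that its arrays were normalized together by RMA, and how the deposited values were scaled after that is not given there. They were log2 transformed with no constant and no filter. Samples were grouped by title. Of 43681 probe sets, 30342 had 1 gene symbol and 13339 none, 6202 symbols being updated through RefSeq synonyms. A gene was read at its brightest probe set over all 49 samples. Of 500 genes with more than 1 called probe set, 28 were called in both directions. Comparisons used limma 3.58.1 (R 4.3.3; lmFit, eBayes), p-values were adjusted by the Benjamini-Hochberg method across every probe set, and the threshold was 0.05. The scripts were tested on simulated data. The members and lists were chosen with earlier results of these data known.

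Named genes were the 12 largest increases and 12 largest decreases called with separate groups, up to 4 members a list by p, up to 10 genes a direction by difference of differences, 11 genes named by the study and sex chromosome genes, 191 in all. A further 27 genes whose values are shown were chosen after their values were seen, as were other list members named as not passing. Alternatives changed the scaling, the filter, the samples, the array weights, the block and the test, and those on Xist were added after seeing the data. The replicate number in the titles was not taken to pair distant with TRE-MET livers. The 14 tumors were not used here.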

Additional observations from a re-analysis of the deposited data

Results flagged for a closer look

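In the distant and TRE-MET groups of 85 genes, 170 sets of 7 livers, the highest or lowest liver stood far from the others in 5 (2.94%), where chance gives about 1 in 20. They were Cdt1 in distant liver 4 (-1.32, highest), Hyou1 in distant liver 7 (0.90, highest), and, in TRE-MET livers, Cish in liver 5 (0.15, highest), Hao2 in liver 5 (-4.18, highest) and Lpl in liver 3 (2.14, highest), all as log2 intensities.

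The difference between distant and TRE-MET livers differed from that between WT and LAP-tTA livers in 2171 of 21517 genes (10.1%). Of the genes called in both tests with the same sign, 739 were higher and 553 lower. The distant minus TRE-MET difference is part of both tests, so agreement in sign is in part built in. The largest differences of differences on the log2 scale were higher for Cyp17a1 (6.32), Xdh (5.93), Ifi27l2b (5.73), Trim12a (5.49), Akr1c19 (5.23), Tff3 (5.13), Corin (4.65), Gm4992 (4.48), Ifi204 (4.40) and Gstm5 (4.33). They were lower for Gdpd3 (-7.52), Dio1 (-4.99), Gm6614 (-4.45), Gna14 (-4.41), Cyp7b1 (-4.31), Slc15a2 (-4.29), Ugt2b38 (-4.19), Akr1e1 (-4.0), Elovl3 (-3.85) and Psmc3ip (-3.74). Several of these rest on LAP-tTA livers that stood apart from both WT and TRE-MET livers, such as Gdpd3, at a mean of 2.05 in distant livers, 3.0 in WT, 2.64 in TRE-MET and -3.93 in LAP-tTA livers. Xdh, Akr1c19, Corin, Gstm5, Akr1e1 and Psmc3ip were also among the genes described above with LAP-tTA livers at one end.

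In adjacent liver, used only as an alternative to distant liver, Afp lay between -2.01 and 3.15, the highest in liver 4, and all 7 adjacent livers were above every WT liver (-3.70 to -2.73).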

How the results depend on the processing

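The 6231 probe sets called became 3787 without TRE-MET livers 1, 2, 3 and 5, 987 without the 4 distant livers with Xist, 1263 without both, 2778 with Xist as a term over 28 livers and 2434 at an adjusted p under 0.01, and lay between 4500 (without distant liver 4) and 6959 (without distant liver 7) with 1 liver left out. Fewer samples entered the first 3 of these fits, and beyond that the cause was not tested. At 1 probe set per gene, with p-values adjusted over those 21517 probe sets alone, 4115 genes were called, a smaller base than the 43681 behind 6231. With the adjustment across every probe set, 3721 of these genes (17.3%) were called, as given above. Without Xist, the count against WT was 871 in place of 2212, and that of WT against TRE-MET 1323 in place of 2654. The count stayed within 1.5 times under the other scalings, all groups in 1 fit, array weights, bright probe sets, the methods' test and adjacent liver.

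With the replicate number as a block 5017 probe sets were called, 1567 against WT and 3213 for the difference of differences. Same-numbered livers did not deviate together (correlations of -0.117 to 0.105, 2 of 7 best with their own number), so the numbers were not taken to pair distant with TRE-MET livers.

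Of 182 named genes called, 94 were still called without the Xist-positive distant livers, 133 without TRE-MET livers 1, 2, 3 and 5, and 88 without both. Signs turned for Kdm5d (0.10) and Xist (-0.02) without Xist-positive livers, for Kdm5d (0.12) with Xist as a term, for Dbp (-0.63), Nfil3 (0.04), Per3 (-0.04), Xist (-0.03) and Kdm5d (0.17) without both sets, and for Loxl1 (0.01) and Vwf (0.00) in adjacent liver. Both Met probe sets kept their side of the threshold in every alternative run. The number of arrays limits the precision.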

Other observations

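Adjacent liver 4 stood apart from the other adjacent livers in the beta-catenin targets Glul (5.35 on the log2 intensity scale) and Slc1a2 (3.98) and in Afp. The other 6 adjacent livers had Glul at 2.57 to 3.47 and Slc1a2 at -4.08 to 0.47, while distant livers had Glul at 2.80 to 3.52 and Slc1a2 at -2.71 to 1.46. The counts given for adjacent liver include liver 4.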
